A study of Drosophila melanogaster with 6 samples.

Results

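Long noncoding RNAs expressed in the fly head were followed as a set of 47 genes, out of 13541 in a deposited table that compares heads of 2 genotypes. They were chosen by their measured level. A member is a gene of biotype ncRNA whose name is CR followed by a number, with an average of the mutant and control means of at least 50 normalized counts. The region of X from 17628219 to 18628318, around mir-210 itself, was left out. Outside it the table holds 1137 such noncoding genes, of which 1090 fell under the level. The level sets the membership and is described without a test.

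The samples were heads of adult Drosophila melanogaster, 3 labelled miR-210 mutant and 3 labelled w1118 control. w1118 is a laboratory strain with white eyes that serves as a common genetic background. The labels give no age, sex or rearing, nor how the mutation was made, beyond the name M22-3 for the mutant samples. They do not say whether the 3 samples of a genotype were separate collections of flies. The p-values therefore speak of the spread among these samples, which may be technical only.

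A long noncoding RNA is a transcript with no long reading frame that is known to be translated. Some are the primary transcripts from which microRNA hairpins are cut, some run antisense to a protein-coding gene, and most fly genes with CR names have no known role. miR-210 is a conserved microRNA that in flies is made in the visual system. MicroRNAs lower the output of messenger RNAs that carry matching sites, and their own hairpins are too short-lived and small to be counted well by standard RNA sequencing. The mir-210 hairpin was not analysed here.

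The table gives the authors' mean of normalized counts (read counts divided by a size factor of the library) for each group, with their fold change and p-value. Single libraries were recovered from the means for 46 of the 47 members, and CR42862 was too abundant to be recovered. The recovered libraries are called deepest, middle and shallowest by size factor, as no replicate number goes with them. Summed over recovered genes, reads came to 9387245, 7542663 and 6370385 in the deepest, middle and shallowest mutant libraries, against 17105853, 10028932 and 9393559 in those of the control. The deepest library of each group stood apart from the others, as described below for the members. All 6 photoreceptor and 5 neuron markers looked up had values above 0 in both groups. Among cell type markers in the authors' deposited table, 5 of 6 photoreceptor markers were called lower in the mutant, with means summing to 281900 in the mutant and 833200 in the control. Of 5 fat body markers, 2 were called higher (Lsp2 and Yp2), with means summing to 1566000 for the mutant and 805000 for the control. Most of both sums came from Yp1, with 537254 in the mutant and 286449 in the control, and Yp2, with 954060 and 477815. Fbp1 was lower without a call, with 2.98 in the mutant and 9.17 in the control. The authors' deposited table also calls single markers of other types. In it NimC1 (hemocytes), alrm (glia) and TpnC41C (muscle) were lower and Cp19 (ovary) was higher, with log2 fold changes of −4.20, −0.79, −1.01 and 3.16. The sums of the lists with lower calls were not lower, but a single uncalled gene made up most of each sum. The hemocyte, glia and muscle markers summed to 7654, 43790 and 63640 in the mutant, against 6131, 41840 and 55930 in the control. Hml, Gs2 and Mhc alone had 7563.5, 39446 and 62976.5 in the mutant, against 4737, 36460 and 54647 in the control. In the muscle list Act88F was also lower, without a call (log2 fold change −0.45). The 3 gut markers summed to 1646 in the shallowest mutant library, 235 and 298 in the other mutant libraries and 139.9 to 424 in the control libraries. The part of these shifts in the values of the members was not tested, and in bulk tissue fewer cells of a type and less RNA per cell cannot be told apart.

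In mutant heads 4 of the 47 noncoding RNAs were higher and 3 were lower at an adjusted p under 0.05 in the authors' deposited table. CR31044, the transcript that carries mir-279 and mir-996, was 14.1-fold higher. CR44030, CR43051 and CR43417 were between 1.93-fold and 2.28-fold higher. CR43242 was 1.83-fold lower, CR31781 2.18-fold lower, and CR46006, the transcript that carries mir-276a, 2.69-fold lower. These 7 calls are 14.9% of the members, where the same rule called 4.46% of the 11155 genes tested (2.56% higher, 1.89% lower) and 4.54% of the 8510 protein-coding genes tested at the same level. The set holds 6 members that passed the level only through the group in which they were higher, and 3 of the 7 calls (CR31044, CR44030 and CR46006) are among those 6. Of the 41 members at or above the level in both groups, 4 were called.

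CR31044 (FBgn0051044) lies on 3R from 29214562 to 29219667 on the plus strand (build dm6), in 5106 bases with no overlapping protein-coding gene. The hairpins of mir-279 and mir-996 lie inside its exon on the same strand, 1023 and 2622 bases from its start by their RefSeq positions. These closely related microRNAs are known in flies from the nervous system, where mir-279 limits the formation of neurons that sense carbon dioxide. CR31044 had 356, 566 and 570 normalized counts in the deepest, middle and shallowest mutant libraries, against 20.9, 34.4 and 51.8 in the control libraries. Every mutant library was above every control library, and the lowest mutant value was several times the highest control value. The means were 497 ± 123 in the mutant and 35.7 ± 15.5 in the control (SD, n = 3 each), and the authors' deposited table gives a log2 fold change of 3.82 with an adjusted p of 2.71e-18. The log2 fold change was 4.02 between the deepest libraries and 3.72 between the others. limma, fitted to all recovered genes, gave an adjusted p of 0.00804, with 6.74e-07 to 0.0709 over 11 alternative fits. Per kilobase of transcript the mean was 97.4 normalized counts in the mutant and 6.99 in the control.

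CR46006 (FBgn0267668) lies on 3L from 10323501 to 10367450 on the plus strand, with 10235 exonic bases, and is the longest of the called members. Its last exon holds mir-276a, a microRNA that is known from olfactory memory and the circadian clock of flies. CR46006 had 51.4, 43.6 and 52.1 normalized counts in the deepest, middle and shallowest mutant libraries, against 110, 121 and 165 in the control libraries. The highest mutant library stayed below the lowest control library. The means were 49.0 ± 4.73 in the mutant and 132 ± 29.2 in the control (SD, n = 3 each). The authors' deposited table gives a log2 fold change of −1.43 with an adjusted p of 0.000252, and limma gave an adjusted p of 0.0491, with 0.0017 to 0.231 over 11 alternatives. The hairpins of mir-279, mir-996 and mir-276a have no values here, so nothing was measured of the microRNAs made from these transcripts.

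Another 3 members overlap a microRNA gene. None of them passed the threshold in the authors' deposited table or in limma on all libraries without a library term. CR43650, which spans mir-8, a microRNA that promotes body growth through the fat body, had 103, 85.9 and 52.1 normalized counts in the mutant libraries, against 101, 61.4 and 69.7 in the control libraries (deepest, middle, shallowest). Its groups overlapped, and its log2 fold change was 0.05 in the authors' deposited table (adjusted p 0.988). CR46194, which holds mir-281-1 and mir-281-2, had 78.1, 61.7 and 41.7 in the mutant libraries, against 116, 67.9 and 86.7 in the control libraries. It shares exonic bases with Oda on its own strand and with SmD3 on the other, so its reads may not be separable from theirs. CR31451, which Ensembl names mimi, overlaps mir-9381 at its 5′ end and had 973, 606 and 504 in the mutant libraries against 1306, 964 and 792 in the control libraries. The groups of CR46194 and CR31451 overlapped as well, and the authors' deposited table gives them log2 fold changes of −0.57 and −0.56 (adjusted p 0.680 and 0.630). Of the 5 microRNA hosts, 2 have an unadjusted p under 0.05 in the authors' table, CR31044 and CR46006. Both of those passed the level only through the group in which they were higher. Limma with a term for the deepest libraries and limma without those libraries each called 3, CR31451 in addition. Over all tested genes 12% had an unadjusted p under 0.05 in the authors' table. Those limma fits called 16% and 6.61% of all genes fitted.

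**Figure D1:**
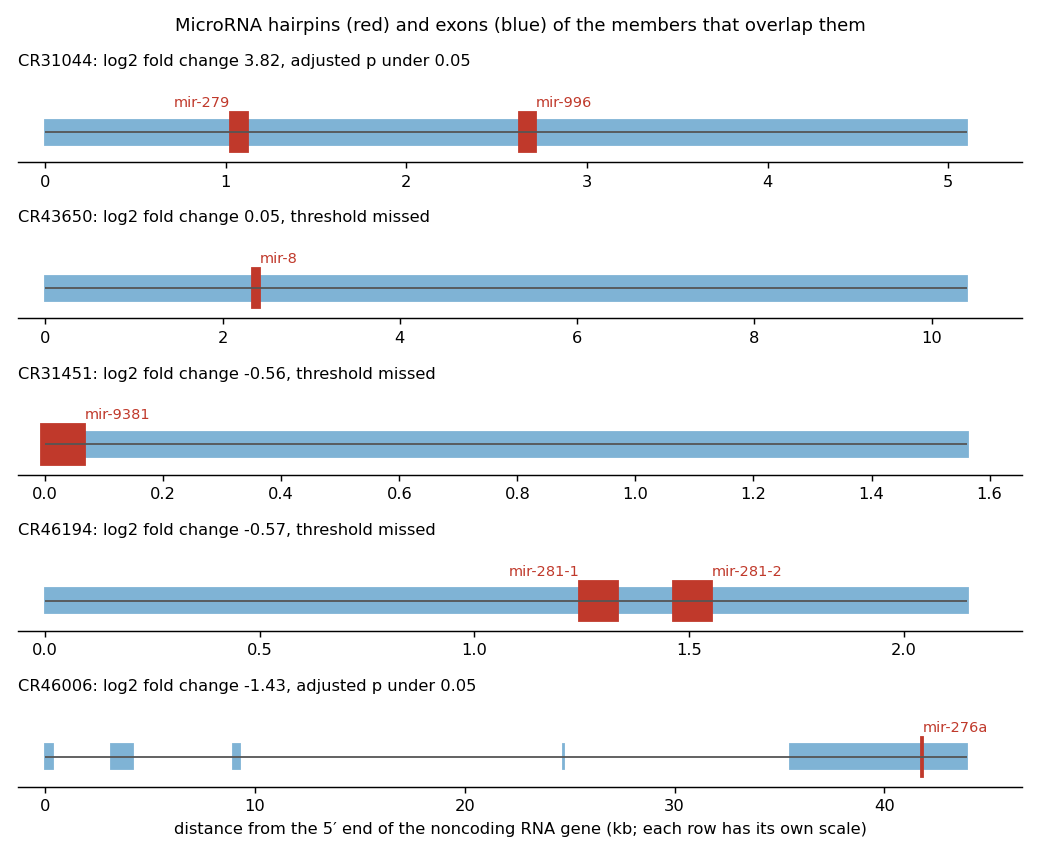
Exons (blue) and microRNA hairpins (red) of the 5 members that overlap a microRNA gene, drawn along each gene from its 5′ end in kilobases, with a scale of its own in each row. The called hosts, CR31044 with a log2 fold change of 3.82 and CR46006 with −1.43, stand in the top and bottom rows, and the hairpins lie in exons on the strand of the host, except that mir-9381 runs past the 5′ end of CR31451.

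The other called members overlap no microRNA gene. CR44030 (FBgn0264822), on chromosome 4 from 959675 to 962692 on the plus strand, had 95.6, 98.0 and 98.2 normalized counts in the deepest, middle and shallowest mutant libraries, against 48.8, 34.4 and 43.8 in the control libraries. The mutant libraries lay close together and all above the control. The authors' deposited table gives a log2 fold change of 1.19 with an adjusted p of 0.00161. Of its exonic bases 39.7% are shared with fuss on the opposite strand, a gene of the Ski and Sno family of transcriptional regulators. For fuss the authors' deposited table lists means of 40.4 (mutant) and 44.2 (control), with a log2 fold change of −0.14 and an adjusted p of 0.974. The noncoding RNA was thus called and the overlapping gene was not, while strandedness of the counting is not given in the sources used here.

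CR43051 (FBgn0262353), on 2L from 12507939 to 12508504 on the plus strand, lies within bun, a transcription factor gene on the other strand, and shares no exonic base with it. It had 243, 132 and 184 normalized counts in the mutant libraries, against 99.9, 90.2 and 80.7 in the control libraries. The groups did not overlap, and the mutant libraries were spread more widely than the control libraries. The authors' deposited table gives a log2 fold change of 1.04 with an adjusted p of 0.0274, the highest adjusted p of the 7 calls. The current Ensembl annotation lists this gene as protein-coding (CG43051) with a small nucleolar RNA inside it. CR43417 (FBgn0263336), on 2R from 16817519 to 16819240 on the minus strand, had 183, 156 and 187 in the mutant libraries, against 92.9, 82.8 and 96.6 in the control libraries. All its mutant libraries were above the control, with a log2 fold change of 0.95 and an adjusted p of 0.0017 in the authors' deposited table. It shares 59 bases with CG5550 on the other strand, for which the authors' means are 3.23 in the mutant and 1.84 in the control.

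Among the lower members, CR31781 (FBgn0051781) is the most abundant of the 7. It lies on 2L from 16869346 to 16878300 on the plus strand and overlaps no other gene. It had 1152, 957 and 789 normalized counts in the mutant libraries, against 1937, 2591 and 1801 in the control libraries. The groups did not overlap, and the authors' deposited table gives a log2 fold change of −1.13 with an adjusted p of 0.000884. CR43242 (FBgn0262887), on 2L from 23069005 to 23070724 on the plus strand, likewise overlaps no other gene. It had 236, 236 and 251 in the mutant libraries, against 364, 468 and 493 in the control libraries. Again no mutant library reached the control, with a log2 fold change of −0.87 and an adjusted p of 0.00307 in the authors' deposited table. All 7 called members had the same direction between the deepest libraries as between the others, which follows where the groups do not overlap. With 3 libraries in each group, an exact two-sided permutation test of a single gene cannot go below 0.1, so the calls rest on fits that share information across genes.

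**Figure D2:**
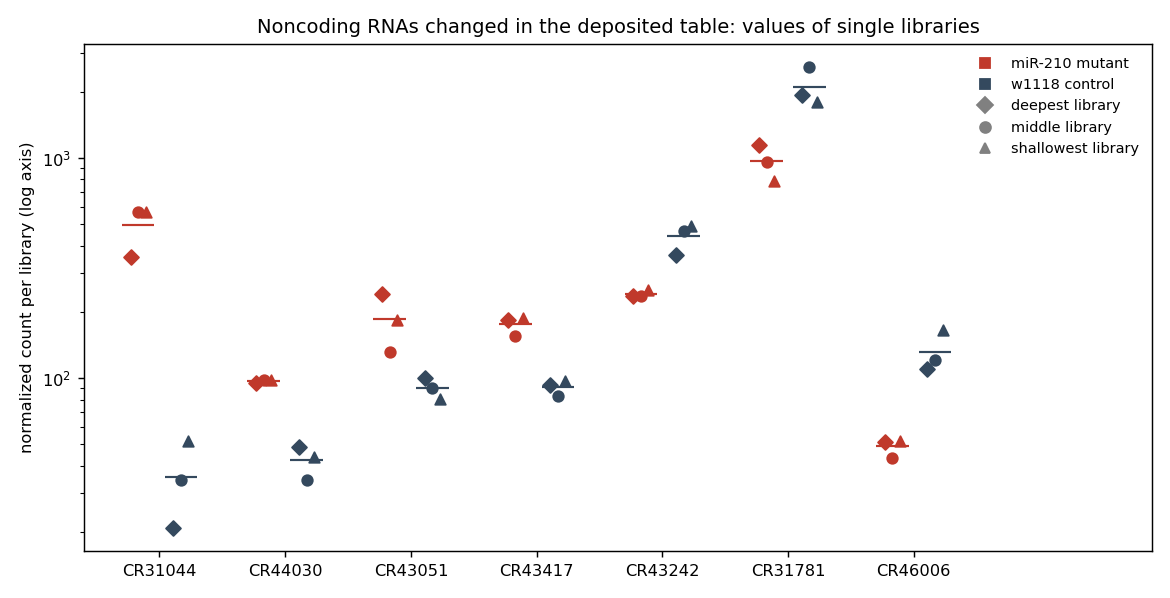
Normalized counts of the 7 called noncoding RNAs in each recovered library on a log axis, miR-210 mutant (red) left of w1118 control (dark blue), with the shape marking the library and a line at the group mean. No group overlaps its counterpart for any of the 7, and CR31044 shows the widest separation, with 356 to 570 in the mutant against 20.9 to 51.8 in the control.

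The number of calls differed between the authors' test and limma, which also differ in scale and in the genes fitted. Fitted to log2(normalized count + 1) in the recovered libraries, limma called 2 of 46 members, CR31044 and CR46006, and 0.992% of all genes fitted. Both are among the 6 members that passed the level through 1 group alone. With a term for the deepest libraries it called 18 of 46, which is 39.1%, where it called 16% of all 11596 genes fitted. The share was 19.9% over protein-coding genes at the same level. Of the 40 recovered members at or above the level in both groups 14 were called, and 4 of the other 6. The 18 include all 7 of the authors' calls, and 5 of the 18 were higher and 13 lower in the mutant. The additional higher one was CR43452, with 125, 283 and 251 normalized counts in the mutant libraries, against 69.7, 157 and 195 in the control libraries. Its groups overlapped, with a log2 fold change of 0.68 and an adjusted p of 0.0136 in that fit, and 0.0136 to 0.999 over 11 alternatives. With the deepest libraries left out limma called 12 of 46, 6.61% of all genes fitted and 8.07% of protein-coding genes at the same level. The additional lower ones in the fit with the term included CR44024 with a log2 fold change of −1.21 and CR44317 with −1.07.

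Between the groups as a whole, the noncoding RNAs tended to lie lower in the mutant. In the authors' deposited table their log2 fold changes had a median of −0.26, with quartiles of −0.66 and −0.03, and 36 of the 47 were below 0, which is 76.6%. The median over all tested genes was −0.04 with 54.2% below 0, and over protein-coding genes at the same level −0.01 with 51.3% below 0. The 463 tested CR-named noncoding genes under the level had a median of −0.29. Taken within the recovered libraries, 26 of the 46 members were lower in the mutant both between the deepest libraries and between the others, 9 were higher in both, and 11 differed in sign. The libraries of the groups did not overlap for 15 of the 46 members, which is 32.6%, against 18.3% of all recovered tested genes. Among the 40 recovered members at or above the level in both groups it was 10, or 25%, and of the 6 that passed through 1 group alone it was 5. Those 15 are the 7 called members and 8 more, namely CR42491, CR44417, CR45018, CR46035, CR44370, CR44811, CR44317 and CR45131, of which CR44370 alone was higher in mutant libraries. Unadjusted p-values under 0.05 were listed by the authors' deposited table for 12 of the 47 members, and for 1344 of all 11155 tested genes (12%).

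**Figure D3:**
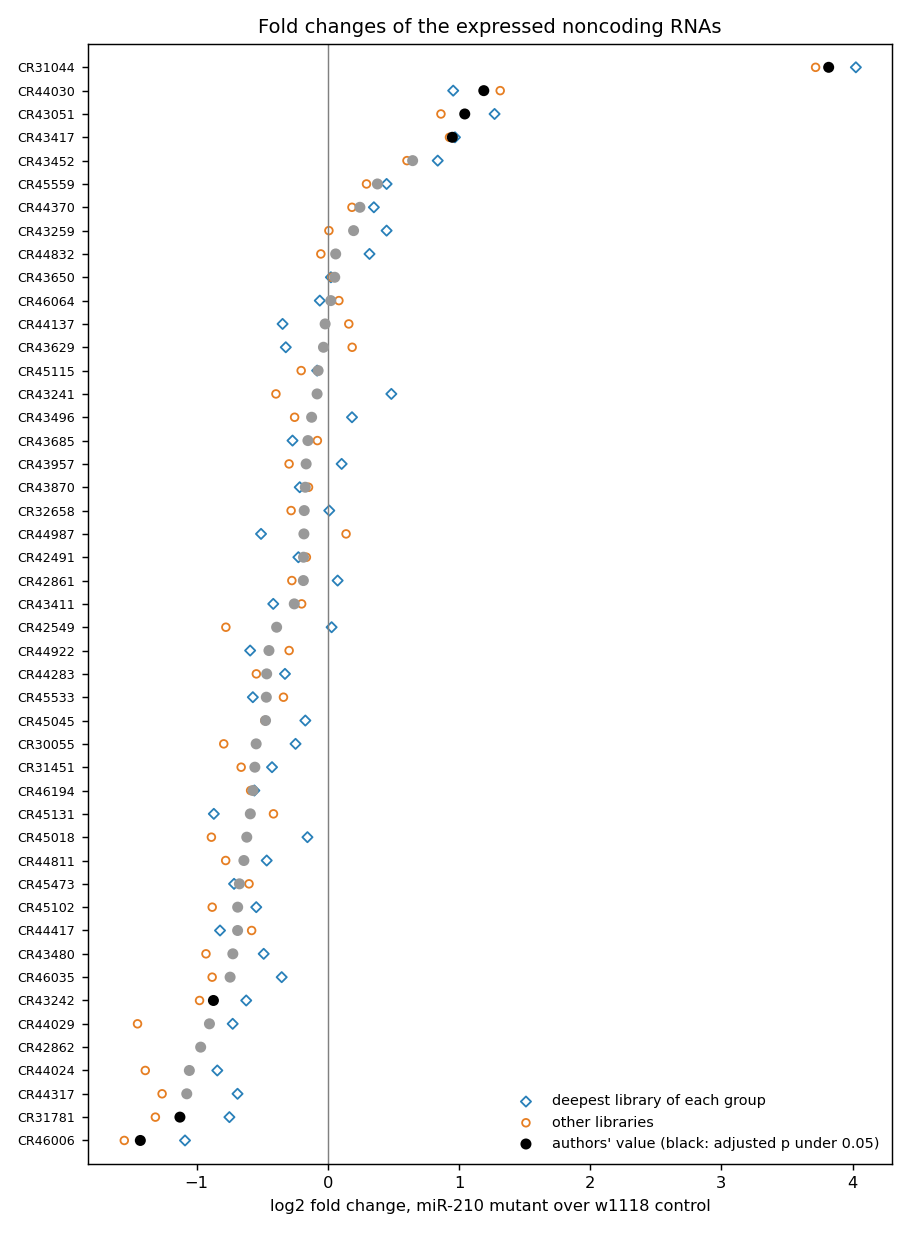
Log2 fold change of all 47 members, mutant over control, ordered from the highest to the lowest value in the authors' deposited table (filled points, black where the adjusted p was under 0.05), with the values between the deepest libraries (diamonds) and between the other libraries (open circles). Most points lie left of 0 (36 of 47), CR31044 stands alone at the top, and for 11 members the diamond and the circle fall on different sides of 0.

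Several members with sizes of change like those of the called ones missed the threshold. CR44317 came nearest, with 48.3, 29.0 and 44.6 normalized counts in the mutant libraries against 78.4, 71.6 and 108 in the control libraries. Its groups did not overlap, and the authors' deposited table gives a log2 fold change of −1.07 with an adjusted p of 0.0597. CR46035, which runs opposite to a protein-coding gene, had 78.1, 94.4 and 87.8 in the mutant libraries against 99.9, 176 and 161 in the control libraries. Its groups did not overlap either, with the lowest control library close above the highest mutant library, and it had a log2 fold change of −0.74 and an adjusted p of 0.260 in the authors' deposited table. CR44024 had 364, 115 and 80.3 in the mutant libraries, against 653, 282 and 228 in the control libraries, so that the deepest mutant library exceeded 2 of the 3 control libraries. The authors' deposited table gives it a log2 fold change of −1.05 with an adjusted p of 0.604.

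The other members separated by library without a call differed by smaller steps. CR44417 had 169, 110 and 134 normalized counts in the mutant libraries, against 298, 194 and 170 in the control libraries. CR45018, a member of 4000 bases on X, had 143, 105 and 90.8 in the mutant libraries, against 159, 194 and 170 in the control libraries. Their log2 fold changes of −0.69 and −0.62 had adjusted p-values of 0.375 and 0.286 in the authors' deposited table, and in both the highest mutant library lay close below the lowest control library. CR44370 was the separated member with a higher mutant level, with 96.6, 87.1 and 93.7 in the mutant libraries, against 75.5, 74.4 and 84.7 in the control libraries. CR42491 had 781, 754 and 771 in the mutant libraries, against 912, 835 and 872 in the control libraries. Both lay within narrow ranges in each group, with log2 fold changes of 0.25 and −0.18 in the authors' deposited table (adjusted p 0.870 and 0.786). Over all 40 members without a call, the log2 fold changes in that table ran from −1.07 for CR44317 to 0.65 for CR43452.

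The levels themselves covered a wide range. Per kilobase of transcript, the members had a median of 75.5 normalized counts in the mutant and 80.3 in the control, and protein-coding genes at the same level 262 in the mutant and 265 in the control. CR42862, on 3L, was the most abundant, with a mutant mean of 14306 and a control mean of 27989, or 2608 and 5103 per kilobase. Its log2 fold change of −0.97 in the authors' deposited table had an adjusted p of 0.586, and without recovered libraries its spread cannot be shown. Next per kilobase came CR44832, with 1160 in the mutant and 1113 in the control, and CR42491, with 1029 in the mutant and 1169 in the control. CR42491 shares 50.5% of its exonic bases with RpL22, a ribosomal protein gene on the same strand, so its count is uncertain. Abundant members with overlapping groups included CR44922, with 529, 288 and 199 normalized counts in the mutant libraries, against 798, 279 and 310 in the control libraries. CR30055, inside Sin3A on the other strand, had 417, 265 and 192 in the mutant libraries, against 495, 406 and 378 in the control libraries. In both genes the deepest library was the highest of its group. At the other end of the scale per kilobase, CR46006 had 4.79 per kilobase in the mutant and 12.9 in the control, and CR43650 had 7.72 in the mutant and 7.44 in the control.

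Close to the level that defines the set, the lowest averages inside were those of CR44987, with a mutant mean of 52.9 and a control mean of 59.9, and CR45559, with 63.8 in the mutant and 49.4 in the control. Just outside were CR43148, with 46.5 in the mutant and 48.6 in the control, and CR45600, with 80.9 in the mutant and 10.6 in the control. The authors' deposited table calls CR45600 higher, with a log2 fold change of 2.89 and an adjusted p of 2.13e-05. It does not call CR43148, CR44987 or CR45559. The members nearest to the excluded region on X were CR42861 on its left, with 70.7 in the mutant and 80.7 in the control, and CR43480 on its right, with 61.1 in the mutant and 101 in the control. Neither of those passed the threshold in the authors' deposited table (adjusted p 0.942 and 0.631).

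The members were also sorted by the genes around them. Of the 47, 20 lie opposite a protein-coding gene alone, 8 overlap one on the same strand and 19 overlap none. CR46194, which lies opposite SmD3 and on the strand of Oda, was placed among the 8. The authors' deposited table calls 3 of the 20 opposite members, all higher, and 4 of the 19 without a protein-coding partner. These are 15% and 21.1%, against 14.9% of all members and 4.46% of all tested genes. The authors' deposited table calls none of the 8 on the same strand. Of those 8, 1 (CR45018) has an unadjusted p under 0.05, limma called none, and limma with a term for the deepest libraries called 1. The counts per class are too small to be read against each other. Median log2 fold changes in the authors' deposited table were −0.18 for the opposite members, −0.43 for those on the same strand and −0.45 for those with no protein-coding partner. None of the 20 tested protein-coding partners on the opposite strand was called by the authors' table, where 1 had an unadjusted p under 0.05, limma called none and limma with a term for the deepest libraries called 3. The same counts were found for the 8 tested partners on the same strand. Over all genes, 12% had an unadjusted p under 0.05, limma called 0.992% and limma with the term called 16%. M7BP (CG43340 in the table), which lies opposite CR45131, had a log2 fold change of −1.21 with an adjusted p of 0.071, and CR45131 had −0.59 with 0.475, both in the authors' deposited table. Across the 20 opposite pairs with a tested gene, CR46194 with SmD3 among them, the log2 fold changes had a Spearman rho of 0.27, and across the 8 pairs on the same strand −0.10. The partners of a pair share their libraries and, where they overlap, may share reads, so these are descriptions.

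**Figure D4:**
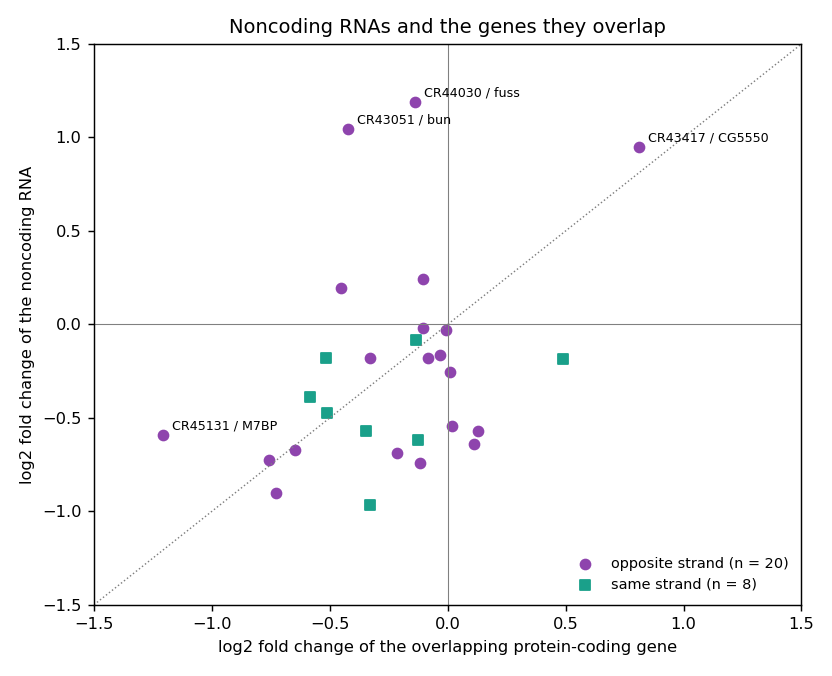
Log2 fold change of each noncoding RNA (vertical) against that of the protein-coding gene it overlaps (horizontal), both mutant over control in the authors' deposited table, for 20 pairs on opposite strands (circles) and 8 on the same strand (squares), with a dotted line of equal change. CR44030 and CR43051 stand above the others with partners near 0 or below (fuss at −0.14, bun at −0.42). The other called member, CR43417 at 0.95, has a partner above 0, CG5550 at 0.81, with means of 3.23 (mutant) and 1.84 (control). CR45131 lies beside M7BP, the partner with the lowest value.

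Neighbouring genes moved at some of the called loci. On the left of CR31044, 10429 bases away, Cyt-c1L had 33.9, 29.0 and 28.3 normalized counts in the mutant libraries against 3.48, 6.51 and 4.98 in the control libraries. Cyt-c1L encodes a form of cytochrome c1 and went the same way as CR31044, with a log2 fold change of 2.65 and an adjusted p of 0.000104 in the authors' deposited table. On the right, eEF1gamma, a translation elongation factor, had a log2 fold change of 0.72 and missed the threshold in the authors' deposited table (adjusted p 0.202). Within 50 kb of CR31044, 5 of 17 tested genes were called there, where 4.12% of all tested genes on 3R were called. Cyt-c1L, CG11951 and CG31445 were higher, and stg, the fly Cdc25 phosphatase, and CG14515 were lower. Next to CR31781, CG6012 had 53.4, 102 and 137 in the mutant libraries against 8.71, 12.1 and 5.98 in the control libraries. CG6012 thus went the opposite way to CR31781, with a log2 fold change of 3.44 and an adjusted p of 1.14e-08 in the authors' deposited table. Within 50 kb of CR31781, 3 of 15 tested genes were called, CG6012 and CG13283 higher and CG13280 lower. Of all tested genes on 2L, 5.36% were called. The window of 50 kb was chosen after these values were seen. Around the other 5 called members none of 29 tested genes within 50 kb was called in the authors' deposited table, where 1 had an unadjusted p under 0.05, limma called none and limma with a term for the deepest libraries called 6. With 1 mutant and 1 control strain, the loss of miR-210 and other differences between the strains cannot be told apart.

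By chromosome, 3 of the 7 calls lie on 2L, 1 each on 2R, 3L, 3R and 4, and none on X. Over all tested genes, the authors' deposited table calls 5.36% on 2L, 5.8% on 2R, 4.46% on 3L, 4.12% on 3R, 1.89% on 4 and 2.2% on X. The counts of called members per chromosome are too small to be read against these shares. The X holds 10 members, of which 1 had an unadjusted p under 0.05 in the authors' deposited table, limma called none, and limma with a term for the deepest libraries called 3. Chromosome 4, the small dot chromosome, holds 4 of the 47 members, which is 8.51%, where it holds 0.871% of all genes in the table.

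For many members the deepest libraries differed from the rest, in both genotypes alike. The log2 difference between the deepest libraries and the rest had a median of 0.11 and an SD of 0.94 across 46 members, and 9 of them, or 19.6%, lay beyond 1 in size. The share was 16% over all recovered tested genes, 13.1% over protein-coding genes at the same level and 33.3% over CR-named noncoding genes under it, so it lay within the range of the other groups. CR44029 lies opposite unc-13, a gene of synaptic vesicle priming, and had 447, 60.5 and 49.1 normalized counts in the deepest, middle and shallowest mutant libraries, against 739, 150 and 151 in the control libraries. CR45045, which Ensembl now lists as protein-coding, went the other way, with 27.7, 200 and 266 in the mutant libraries, against 31.4, 385 and 269 in the control libraries. CR43411 was low in the deepest libraries as well, with 55.5, 215 and 205 in the mutant libraries, against 74.3, 299 and 195 in the control libraries. For these 3 members the values differed more between libraries of a group than between the group means. Longer members tended to be higher in the deepest libraries, with a Spearman rho of 0.54 between length and this difference across 46 members, and medians of −0.23, 0.09 and 0.60 from the shortest to the longest tertile. The difference measured in the mutant and in the control had a rho of 0.85 across members and 0.88 across protein-coding genes at the same level.

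Neuronal markers were also highest in the deepest library of each group. The sum of the 5 markers elav, nSyb, brp, Syt1 and para was 19850, 9008 and 6898 normalized counts in the deepest, middle and shallowest mutant libraries, against 34930, 13470 and 13450 in the control libraries. None of the 4 tested neuron markers was called in the authors' deposited table, where 1 had an unadjusted p under 0.05, while limma called none and limma with a term for the deepest libraries called all 4. Whether their shift is part of the values of the members was not tested. For CR44029 the mean without the deepest library was 54.8 in the mutant, against 186 with it, and 151 in the control, against 347 with it. For CR45533 it was 31.5 in the mutant, against 61.4 with the deepest library, and 37.1 in the control, against 85.0 with it. Leaving out a single library moved a group mean by more than 1.5 times for CR44922, CR44024, CR45102, CR45045 and CR44987 as well, and for no called member.

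**Figure D5:**
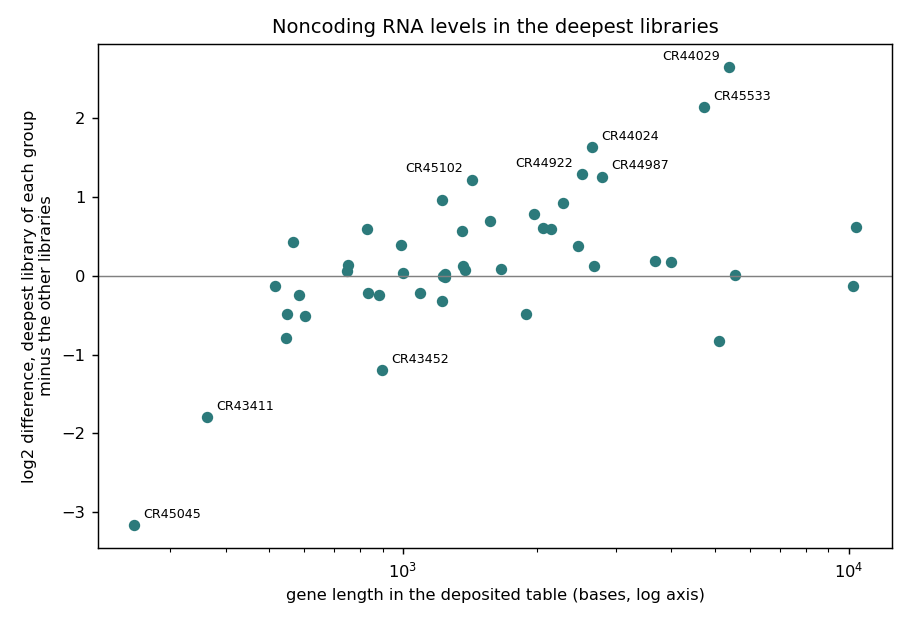
Log2 difference of each recovered member between the deepest library of each group and the other libraries (vertical) against gene length in bases on a log axis, for 46 members, with names at the 9 beyond 1 in size. CR44029 at 2.65 and CR45533 at 2.14 are the highest and CR45045 at −3.16 is the lowest and the shortest.

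A list of long noncoding RNAs with known roles whose names in the table do not begin with CR was also looked up. Of 11 in the table, 5 were tested and none was called in the authors' deposited table. Among the 5, 1 had an unadjusted p under 0.05 there, limma called none and limma with a term for the deepest libraries called 1. Hsromega, a nuclear RNA induced by heat shock, averaged 5508 in the mutant and 5311 in the control, with a log2 fold change of 0.05 in the authors' deposited table. roX1, which acts in dosage compensation of the male X, had 115, 41.1 and 41.7 in the mutant libraries, against 106, 89.3 and 54.8 in the control libraries. roX2, which acts with it, averaged 6.62 in the mutant and 11.5 in the control. For roX1 the groups overlapped, and the proportion of male and female heads in the samples is not given. pncr016:2R averaged 195 in the mutant and 107 in the control, with a log2 fold change of 0.86 and an adjusted p of 0.207 in the authors' deposited table. Uhg4, a host of small nucleolar RNAs, had 213 in the mutant and 287 in the control. bsAS, the antisense RNA of blistered, is the member CR44811, with 65.8, 78.6 and 44.6 in the mutant libraries, against 91.2, 111 and 94.7 in the control libraries. Its groups did not overlap, and the authors' deposited table gives a log2 fold change of −0.64 with an adjusted p of 0.381.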

How the data were processed

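RNA of adult fly heads was sequenced in 6 samples, 3 per genotype. FastQC, HISAT2, featureCounts and DESeq with build dm6 are named, without roles or versions, in the submitters' processing notes. The deposited table holds, per group, the authors' mean signal, the average over libraries of read counts divided by size factors. It also holds the authors' log2 fold change (mutant over control) and their p-value with an adjusted p-value. How the reads were stranded and filtered is not given in the sources used. A count test had been planned, but the table holds group means, so the main result is the calls of the authors, with adjusted p under 0.05. Adjusted values of 1 (2386 genes) were treated as not tested.

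Each mean up to 10000 was searched for 3 whole read counts. All 13193 means searched in the mutant and all 13225 in the control gave exactly 1 combination, with a tolerance of 4e-11 reads. Genes recovered in all libraries numbered 13169, or 97.3%. Size factors were 0.973, 0.826 and 0.672 in the mutant and 1.72, 1.08 and 1.00 in the control. The trend and robust options of limma 3.58.1 (R 4.3.3) were used with Benjamini-Hochberg adjustment. They were applied to log2(normalized count + 1) of genes whose mean reached 1. On that scale changes of low genes are understated. The fit was also run on simulated reads, with 1 spread setting for all genes and no shift of the deepest libraries. How the fit handles such a shift was therefore not tested. Overlaps used any shared base. Ensembl release 115 matched all 47 members by identifier, 44 with the same ends, and gave exons, hairpin strands and current names. The positions of the microRNAs came from RefSeq.

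Named are the called members, the 10 most abundant, the 5 with the largest change that missed the threshold, those next to the level and to the excluded region, the 3 highest and 3 lowest in the deepest libraries, microRNA hosts, overlapping and nearest genes of called members, and listed genes. The members and lists were chosen with earlier results of these data known. Other members named were chosen after their values were seen. Alternatives covered the test, library terms, pseudocounts, filters, scaling, thresholds and overlap.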

Additional observations from a re-analysis of the deposited data

How the results depend on the processing

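The number of members called, 7 in the authors' table, was 6 at an adjusted p under 0.01 and 8 under 0.1. Shares of all genes at those 2 thresholds are not given here. Without the 2 members that Ensembl lists as protein-coding it was 6 of 45, an alternative chosen after seeing the data. It was 5 of 24 at a level of 100, 16 of 112 at a level of 20 and 4 of 18 among members that overlap no other gene. The rule behind these counts called 4.46% of all tested genes. limma on the recovered libraries called 2, also with a pseudocount of 5 or a minimum mean of 10. It called 1 with a pseudocount of 0.5, without a filter, with equal totals, or with recomputed size factors. In these settings limma called 0.813% to 1.1% of all genes fitted. It called 18 with the deepest library as a term, 12 with the deepest libraries left out, and 0 to 1 with each library left out in turn, where 8 to 9 members had an unadjusted p under 0.05 in the fits with none, and where 0.19% to 0.647% of all genes were called. The median log2 fold change of −0.26 was −0.46 at a level of 100 and −0.46 among members that overlap no other gene, and lay between −0.34 and −0.18 otherwise. No called member changed sign in 11 alternative fits. None could, as their groups do not overlap and the fits kept the size factors. CR31044 stayed past the threshold in 8 of them, CR46006 in 4, CR43051 in 1 and the other 4 in 2 each. Among the 46 recovered members, those that changed sign had all missed the threshold. Without the deepest libraries CR44832 was at −0.052, CR44987 at 0.14, CR44137 at 0.16 and CR43629 at 0.19. CR43629, at −0.03 in the authors' table, was at 0.018 in limma with or without a term for the deepest libraries, at 0.018 with a pseudocount of 0.5 and at 0.015 with 5. With each library left out in turn, CR42861 ranged from −0.38 to 0.034, CR43411 from −0.83 to 0.36, CR43650 from −0.17 to 0.31 and CR44832 from −0.073 to 0.17. CR44922 ranged from −0.77 to 0.086, CR44987 from −0.39 to 0.45, CR45045 from −1.48 to 0.63 and CR45533 from −1.09 to 0.34. CR43241 ranged from −0.26 to 0.090, CR43496 from −0.26 to 0.043, CR43629 from −0.22 to 0.29, CR43870 from −0.33 to 0.013, CR44137 from −0.11 to 0.085, CR45115 from −0.43 to 0.25 and CR46064 from −0.081 to 0.19. The cause was not tested. No paired analysis was possible because the recovered libraries and the group means carry no replicate number. CR46006, called lower, had 35, 36 and 50 reads in the mutant libraries, and an effect of depth on the calls was not tested.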
